A study of Mus musculus with 10 samples.

Results

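The genes described here are 9 transcription factors of endothelial cells, out of 55385 gene rows measured in whole mouse liver. They were taken by name as flow-responsive factors (Klf2, Klf4), factors of the liver sinusoid (Gata4, Maf) and general endothelial factors (Gata2, Sox7, Sox18, Fli1, Ets1), and each matched exactly 1 Ensembl gene row. RNA came from frozen, homogenised liver and was sequenced on the BGISeq-500 platform in 10 libraries, 5 labelled Alk1-HEC-KO with genotype KO and 5 labelled Control with genotype Ctrl. Alk1 is another name of Acvrl1, the gene of an endothelial receptor for BMP ligands. The labels used here spell out neither HEC nor the strain, sex, age, any treatment or the driver of the deletion, and nothing in them states that each library is a different animal. P-values therefore measure the spread between these libraries.

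Blood vessels of the liver are lined by several kinds of endothelium. The sinusoids have a thin, fenestrated lining with no continuous basement membrane, whereas the portal and central vessels have a continuous one. KLF2 and KLF4 are zinc finger factors that laminar flow switches on in endothelium, where they favour a quiescent, anticoagulant state. GATA4 and c-MAF (gene Maf) are needed for the sinusoidal character of liver endothelium in mice. FLI1 and ETS1 of the ETS family, SOX7 and SOX18 of the SOXF group and GATA2 maintain genes that endothelial cells share. None of these genes is used by endothelial cells alone. Maf and Klf4 are also active in macrophages and monocytes, Fli1 and Ets1 in lymphocytes and other blood cells, and Gata4 in stellate cells and hepatocytes.

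Estimated counts per library ran from 20.9 M to 21.6 M. The targeted gene went against the labels, since Acvrl1 stood at 1.15, 1.39, 1.22, 1.92 and 1.12 TPM in libraries 1 to 5 labelled Alk1-HEC-KO, against 1.05, 0.30, 0.39, 0.66 and 0.95 TPM in control libraries 1 to 5 (TPM is a level per transcript length that sums to the same total in every library). In TPM the groups did not overlap, and the libraries labelled Alk1-HEC-KO were the higher ones. In log2 CPM (counts scaled to library size with TMM factors, on a log scale) they overlapped, with labelled knockout library 2 at 1.43 and control library 1 at 1.47. The difference did not pass the test described below (edgeR, log2 fold change 0.99, SE 0.32, adjusted p = 0.336). Loss of some exons can leave a gene's total as it was, so a total per gene cannot check such a deletion. Every direction below rests on the label, and the group is called labelled knockout. Hepatocyte markers summed to 67768 to 104905 TPM in labelled knockout libraries and 59639 to 98605 TPM in control libraries, as liver would have, and the endothelial marker Pecam1 was present in all of them at 2.89 to 8.90 TPM in labelled knockout and 1.56 to 4.15 TPM in control libraries. In bulk tissue, fewer cells of a type and less RNA per cell cannot be told apart.

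None of the 9 factors passed the test in labelled knockout libraries over control libraries. All 9 were above the count filter, and 0 of 9 were called at an adjusted p under 0.05 (edgeR quasi-likelihood test, Benjamini-Hochberg adjustment over 12872 genes), where 0.357% of all tested genes were, 0.186% higher and 0.171% lower. At an unadjusted p under 0.05, 4 of 9 stood and all 4 were higher, namely Sox18, Klf4, Fli1 and Sox7. Of all tested genes 8.44% did, 5.03% higher and 3.42% lower. DESeq2, limma-voom and limma on log2(TPM + 1) or log2(TPM + 0.1) also called none, with 4, 5, 5 and 5 members at an unadjusted p under 0.05. The median log2 fold change of the 9 was 0.60, against 0.00 over all tested genes, and all 9 fitted values lay above 0, as did 50.4% of all tested genes. The exceptions to that direction were Gata4 and Maf, whose fitted values were below 0 under 10 and 1 of 27 other settings.

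**Figure D1:**
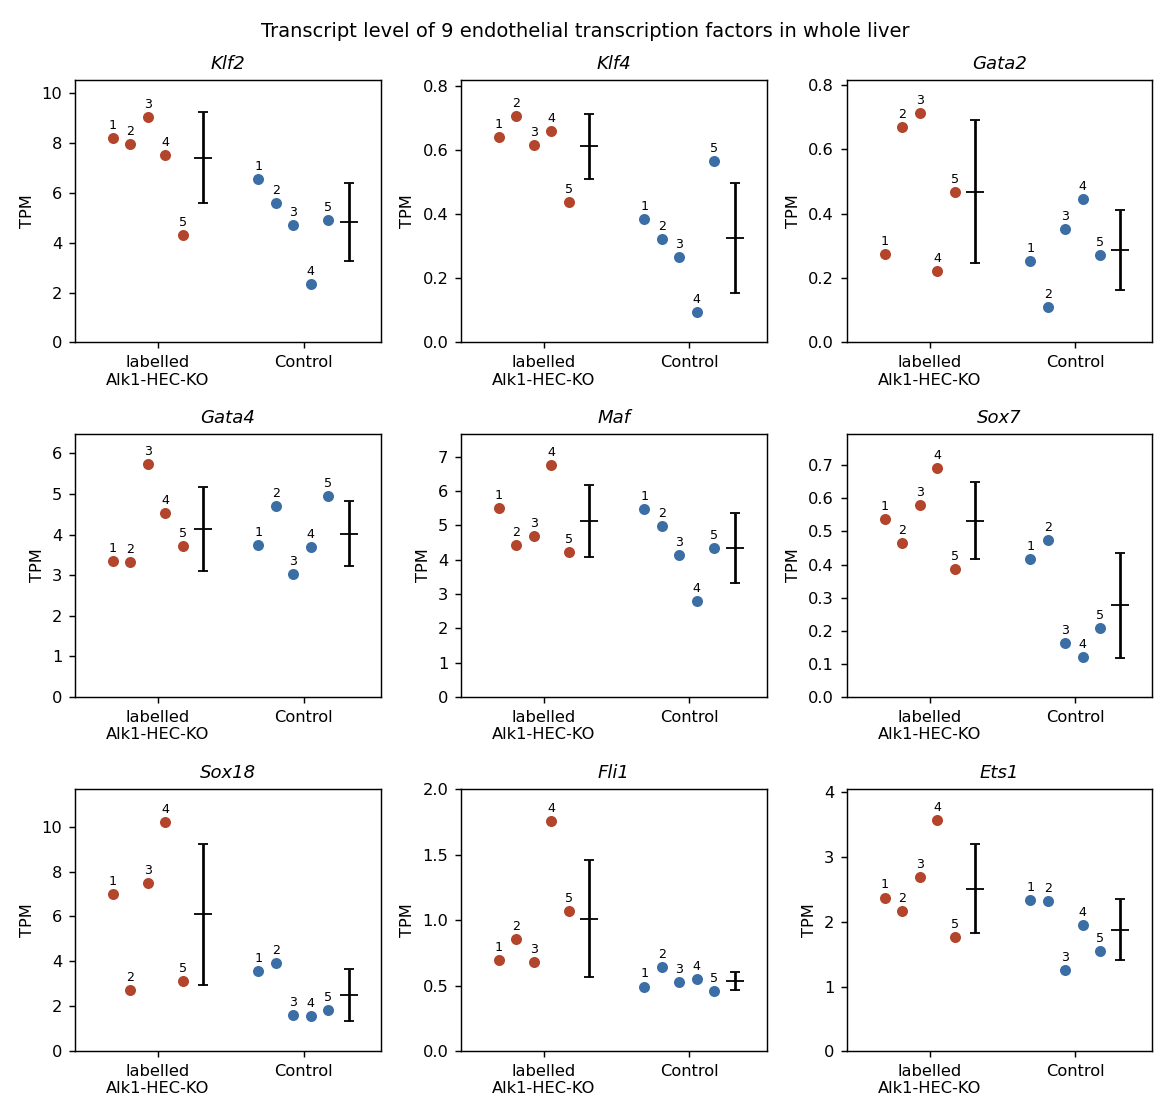
Level of each factor in TPM on the y axis in the 5 libraries labelled Alk1-HEC-KO (left, red) and the 5 control libraries (right, blue), with replicate numbers beside the points and the mean ± SD in black. Fli1 is the factor whose groups do not overlap, from 0.68 TPM upward in labelled knockout libraries and up to 0.64 TPM in control libraries, while the Gata4 groups lie on top of each other.

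Klf2, on chromosome 8 (72319033 to 72321656, plus strand, GRCm38; ENSMUSG00000055148.7), was the most abundant of the 9 in both groups. It stood at 8.18, 7.97, 9.05, 7.53 and 4.29 TPM in labelled knockout libraries 1 to 5, against 6.55, 5.58, 4.72, 2.34 and 4.91 TPM in control libraries 1 to 5. Of the labelled knockout libraries, 4 lay above the highest control, and library 5 lay below 4 of the controls. On the log2 scale the fitted fold change was 0.50 (SE 0.25, 95% interval -0.03 to 1.03; edgeR, adjusted p = 0.611). Without control library 4, the lowest of all 10, it was 0.31.

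Klf4, on chromosome 4 (55527143 to 55532466, minus strand; ENSMUSG00000003032.8), was about an order of magnitude lower. Its level was 0.64, 0.71, 0.62, 0.66 and 0.44 TPM in labelled knockout libraries 1 to 5, against 0.39, 0.32, 0.27, 0.10 and 0.57 TPM in control libraries 1 to 5. The groups overlapped only where labelled knockout library 5 fell below control library 5. Underneath these levels lay sums of 160 estimated counts in labelled knockout and 66 in control libraries. Fitted on counts, the log2 fold change was 1.18 (SE 0.42, 95% interval 0.28 to 2.08; edgeR, adjusted p = 0.419; exact two-sided permutation of log2 CPM, p = 0.0159 unadjusted and 0.516 adjusted over all genes). The TPM that 1 count is worth was not constant for this gene, because estimated counts per TPM were 37.4 to 61.5 in labelled knockout libraries, against 56.8, 15.5, 61.4, 52.5 and 31.8 in control libraries 1 to 5. With offsets for that transcript length the log2 fold change was 0.82.

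The flow-responsive pair is shown by its promoter sequences, since Klf2 and Klf4 share an inducing stimulus. The table of RefSeq promoters used here (GRCm38.p6) matched 3 of the 9 genes, Klf2, Klf4 and Gata2; those of the other 6 were not analysed here. Printed 5′ to 3′ on each gene's own strand are the bases upstream of the first annotated exon, 221 for Klf2 (chr8:72318812-72319032) and 250 for Klf4 (chr4:55532476-55532725). Capitals mark the GC box GGGCGG on either strand, bound by SP and KLF factors, and the MEF2 consensus, the site through which MEF2 factors are known to drive Klf2.
Klf2: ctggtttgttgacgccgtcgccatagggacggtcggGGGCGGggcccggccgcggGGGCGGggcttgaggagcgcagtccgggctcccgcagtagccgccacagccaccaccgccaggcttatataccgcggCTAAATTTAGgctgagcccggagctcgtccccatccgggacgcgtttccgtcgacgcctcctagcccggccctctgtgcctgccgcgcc
Klf4: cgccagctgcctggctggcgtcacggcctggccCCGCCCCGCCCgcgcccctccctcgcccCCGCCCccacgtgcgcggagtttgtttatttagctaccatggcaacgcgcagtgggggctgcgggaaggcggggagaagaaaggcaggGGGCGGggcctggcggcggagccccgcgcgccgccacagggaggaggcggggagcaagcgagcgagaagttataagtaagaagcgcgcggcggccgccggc
The Klf2 window held 2 GC boxes and 1 MEF2 match, CTAAATTTAG, and no motif overlapped another. The Klf4 window held 4 GC boxes, 2 of them overlapping in the first capital run, and no MEF2 match. GC boxes occur in 28.7% of all 32851 RefSeq promoter windows of 221 bases and 32.7% of those of 250 bases, and MEF2 matches in 2.61% and 2.92%. The ETS core GGAAG, not in capitals, had 1 match in the Klf4 window and none in that of Klf2, and 58.8% of all windows of 221 bases and 64.1% of those of 250 bases hold it. The CACCC core of KLF sites, the AGATAA core of GATA sites, the GGCGCC element of BMP-driven SMADs and the ACAAT core of SOX sites had no match in either window, which says only that these letters are not there. On either strand, windows of 221 bases hold these 4 in 48.0%, 9.06%, 8.21% and 25.7% of all promoters, and windows of 250 bases in 52.0%, 9.99%, 9.59% and 27.7%. A match is a description of the letters and not evidence of binding.

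Klf2 stood at a median of 11.4 times the Klf4 level in TPM in labelled knockout libraries (range 9.75 to 14.7), against a median of 17.3 in control libraries (8.67 to 24.5). Both genes also respond early to stress. Of the immediate early genes, which cells switch on within minutes of a stimulus, 14 of 14 tested pointed lower in labelled knockout libraries and 0 were called, and the list summed to 193 to 459 TPM there against 279 to 808 TPM in controls. At an unadjusted p under 0.05 (edgeR), 6 of the 14 were lower, against 3.42% of all tested genes. Of all 12872 tested genes, 6389 pointed lower. Fos, named because it was known to be high in single libraries, stood at 1.09 to 3.03 TPM in labelled knockout libraries, against 27.6 and 24.2 TPM in control libraries 1 and 2 and 1.80 to 4.92 TPM in control libraries 3 to 5. Of the controls, libraries 1 and 2 had the highest Klf2 in TPM (6.55 and 5.58), and library 1 the highest in log2 CPM (3.42). For Klf4 in log2 CPM, control library 1 was the highest control (0.22) and control library 2 the lowest (-1.65). In TPM, control library 5 was the highest control for Klf4 (0.57). Without control libraries 1 and 2 the log2 fold changes were 0.68 for Klf2 and 1.17 for Klf4, against 0.50 and 1.18 over all libraries. The part of the early response in these values was not tested.

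Gata4, on chromosome 14 (63198922 to 63271692, minus strand; ENSMUSG00000021944.15), encodes the zinc finger factor known in mice to impose sinusoidal over continuous character. It stood at 3.35, 3.31, 5.75, 4.54 and 3.72 TPM in labelled knockout libraries 1 to 5, against 3.74, 4.72, 3.02, 3.70 and 4.96 TPM in control libraries 1 to 5. The groups were interleaved, with labelled knockout library 3 highest and control library 3 lowest. Its fitted log2 fold change was 0.02 (SE 0.20; edgeR, adjusted p = 0.983), and the 95% interval, -0.40 to 0.44, corresponds to 0.757 to 1.36-fold. That sign changed in 10 of 27 settings.

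Maf, on chromosome 8 (115682942 to 115707794, minus strand; ENSMUSG00000055435.6), encodes the bZIP factor c-MAF. Levels were 5.51, 4.43, 4.69, 6.76 and 4.22 TPM in labelled knockout libraries 1 to 5, against 5.46, 4.97, 4.14, 2.78 and 4.35 TPM in control libraries 1 to 5. Labelled knockout library 4 was the highest and control library 4 the lowest, and the other 8 libraries were interleaved. Fitted over all libraries, the log2 fold change was 0.17 (SE 0.21, 95% interval -0.29 to 0.62; edgeR, adjusted p = 0.861). It was 0.03 without labelled knockout library 4 and 0.03 without control library 4. Kupffer cells, the liver's macrophages, also use Maf. All 15 Kupffer cell markers pointed higher, and they summed to 325 to 529 TPM in labelled knockout libraries against 210 to 318 TPM in controls. Their part in the Maf value was not tested.

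Sox18 and Sox7 encode SOXF factors that work with ETS factors in vessel formation. Sox18, on chromosome 2 (181669836 to 181671640, minus strand; ENSMUSG00000046470.5), had 6.999, 2.75, 7.47, 10.2 and 3.13 TPM in labelled knockout libraries 1 to 5, against 3.58, 3.92, 1.603, 1.58 and 1.86 TPM in control libraries 1 to 5. The labelled knockout group spread widely, with libraries 1, 3 and 4 above every control and libraries 2 and 5 below controls 1 and 2 but above the other 3 controls. Sox18 had the largest fitted log2 fold change of the 9, at 1.23 (SE 0.38, 95% interval 0.40 to 2.06). It ranked 276th of 12872 genes by p and did not pass (edgeR, adjusted p = 0.332; DESeq2, adjusted p = 0.0628). Over the 27 other settings its log2 fold change ran from 0.91 to 1.71, and its adjusted p from 0.0628 (DESeq2) to 0.99996 (the run of file numbers as a covariate).

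Sox7, on chromosome 14 (63943673 to 63950732, plus strand; ENSMUSG00000063060.6), lies 672 kb from Gata4, with 6 protein-coding genes between them. It stood at 0.54, 0.47, 0.58, 0.69 and 0.39 TPM in labelled knockout libraries 1 to 5, against 0.42, 0.47, 0.16, 0.12 and 0.21 TPM in control libraries 1 to 5. Control libraries 3, 4 and 5 lay below every labelled knockout library, and control libraries 1 and 2 lay within that group. Its log2 fold change was 0.89 (SE 0.36, 95% interval 0.11 to 1.66), from 162 counts in labelled knockout and 84 in control libraries (edgeR, adjusted p = 0.521). Without control libraries 1 and 2, which had high Fos, it was 1.53 (edgeR, adjusted p = 0.250, the lowest over the 26 alternatives that tested it, against a highest of 0.99999), and that of Sox18 was 1.71. For Sox7 it was 0.57 without the 3 libraries with Saa1, an acute phase protein gene, above 1000 TPM (edgeR, adjusted p = 0.988), and 0.68 without control library 4 (edgeR, adjusted p = 0.535). Sox18 stood at a median of 12.9 times the Sox7 level in TPM in labelled knockout libraries (5.89 to 14.7), against 8.96 times in control libraries (8.28 to 12.9).

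Fli1 and Ets1 are neighbours on chromosome 9, 93.4 kb apart with no protein-coding gene between them, and encode ETS factors that bind the same GGAA core. Fli1 (32422204 to 32542861, minus strand; ENSMUSG00000016087.13) stood at 0.70, 0.86, 0.68, 1.76 and 1.07 TPM in labelled knockout libraries 1 to 5, against 0.50, 0.64, 0.53, 0.55 and 0.46 TPM in control libraries 1 to 5. These groups did not overlap in TPM, which held for 1 of the 9 factors and for 1.62% of all tested genes, 1.31% with the labelled knockout libraries higher. In log2 CPM they did overlap, with labelled knockout library 3 at 0.87 and control library 3 at 1.05. On that scale 0 of the 9 had groups apart, against 1.68% of all tested genes. For Fli1 the log2 fold change was 0.77 (SE 0.29, 95% interval 0.15 to 1.40; edgeR, adjusted p = 0.483; exact two-sided permutation of log2 CPM, p = 0.0159 unadjusted and 0.516 adjusted over all genes).

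Labelled knockout libraries 4 and 5, the highest in Fli1, also held the most recruited leukocyte marker transcripts. The 19 markers of that list summed to 29.9 and 31.8 TPM in them and to 13.3 to 14.3 TPM in labelled knockout libraries 1 to 3, against 6.82 to 11.2 TPM in controls, and no marker was at 0 in every library. Without the 3 libraries with Saa1 above 1000 TPM, which are those 2 and control library 4, the log2 fold change of Fli1 was 0.25. The part of leukocytes in the Fli1 value was not tested.

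Ets1 (32636221 to 32757820, plus strand; ENSMUSG00000032035.16) stood at 2.38, 2.16, 2.70, 3.57 and 1.76 TPM in labelled knockout libraries 1 to 5, against 2.34, 2.32, 1.26, 1.95 and 1.54 TPM in control libraries 1 to 5. Labelled knockout libraries 1, 3 and 4 exceeded every control, library 1 by a narrow margin, and the rest were interleaved. Ets1 had a fitted log2 fold change of 0.36 (SE 0.20, 95% interval -0.06 to 0.78; edgeR, adjusted p = 0.667). It was 0.18 without labelled knockout library 4. Ets1 was the more abundant of the neighbours in all 10 libraries, at a median of 2.53 times the Fli1 level in TPM in labelled knockout libraries (1.64 to 3.96) and 3.52 times in control libraries (2.36 to 4.72).

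Gata2, on chromosome 6 (88193891 to 88207032, plus strand; ENSMUSG00000015053.14), encodes a GATA factor of endothelium and of blood progenitors and mast cells. It was the rarest of the 9 by counts, with 62 summed over labelled knockout libraries and 38 over control libraries. Its level was 0.28, 0.67, 0.71, 0.22 and 0.47 TPM in labelled knockout libraries 1 to 5, against 0.25, 0.11, 0.35, 0.45 and 0.27 TPM in control libraries 1 to 5. Labelled knockout libraries 2, 3 and 5 lay above every control and libraries 1 and 4 within the control range. The log2 fold change of 0.60 (SE 0.51, 95% interval -0.50 to 1.71; edgeR, adjusted p = 0.791) does not tell higher from lower at this depth. RefSeq places 2 start sites of Gata2 4773 bases apart, and GENCODE lists 5 transcripts of 423 to 3571 bases. Estimated counts per TPM of Gata2 ran from 18.2 to 61.7 in labelled knockout and 6.74 to 59.0 in control libraries, a 9.15-fold range over all 10, whereas that range was 1.20 to 1.25-fold for the 7 factors other than Gata2 and Klf4 (3.98-fold). TPM of Gata2 in control libraries 4 and 5 thus rest on 3 and 2 counts. The mast cell protease gene Cpa3 was listed at 0 in all 10 libraries, and Mcpt4, another one, at 0 in every library but control library 1, where it had 0.108 TPM. The full list of 9 mast cell and megakaryocyte markers was present, however. It summed to 5.89 to 14.0 TPM in labelled knockout and 5.49 to 8.13 TPM in control libraries. Which cells hold the Gata2 transcripts was not tested.

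**Figure D2:**
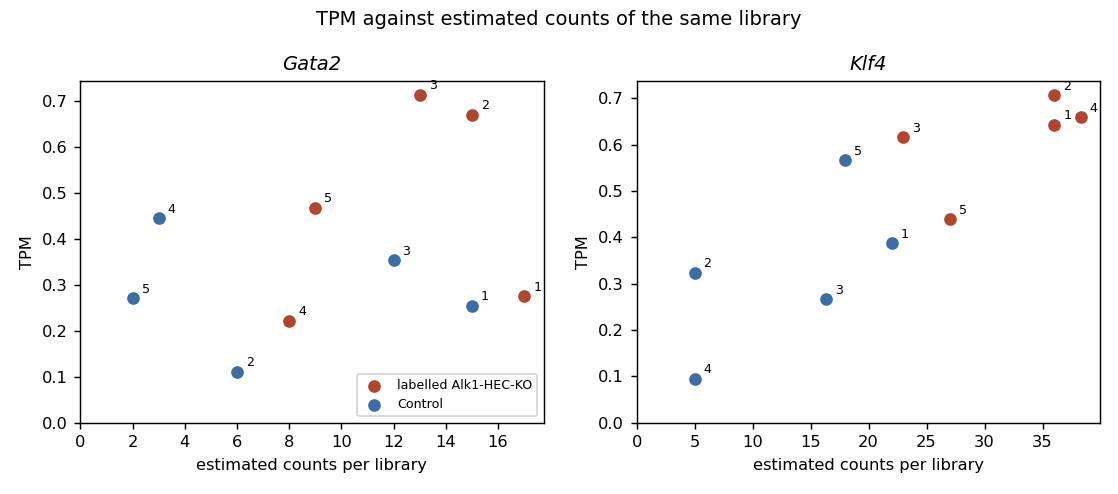
TPM (y axis) against estimated counts (x axis) of Gata2 and Klf4, 1 point per library with its replicate number. A gene with one transcript length would lie on a line through the origin, but Gata2 has 0.28 TPM from 17 counts in labelled knockout library 1 and 0.45 TPM from 3 counts in control library 4.

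Set in order by mean TPM, the 9 factors ran Klf2, Sox18, Maf, Gata4, Ets1, Fli1, Klf4, Sox7 and Gata2 in labelled knockout libraries, and Klf2, Maf, Gata4, Sox18, Ets1, Fli1, Klf4, Gata2 and Sox7 in control libraries. Means spanned 0.469 to 7.41 TPM in labelled knockout and 0.277 to 4.82 TPM in control libraries. Klf2 exceeded 54.8% of tested genes in mean TPM, and Gata2 exceeded 6.07%. In each group, Ets1 and Fli1 were the neighbours in this order whose ranges did not overlap. Every other pair of neighbours overlapped. Gata4 lay above Ets1, the next factor in the labelled knockout order, in all 10 libraries. Sox18 took a different place in the groups: it lay above Gata4 in 3 of 5 labelled knockout libraries and in 0 of 5 control libraries.

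**Figure D3:**
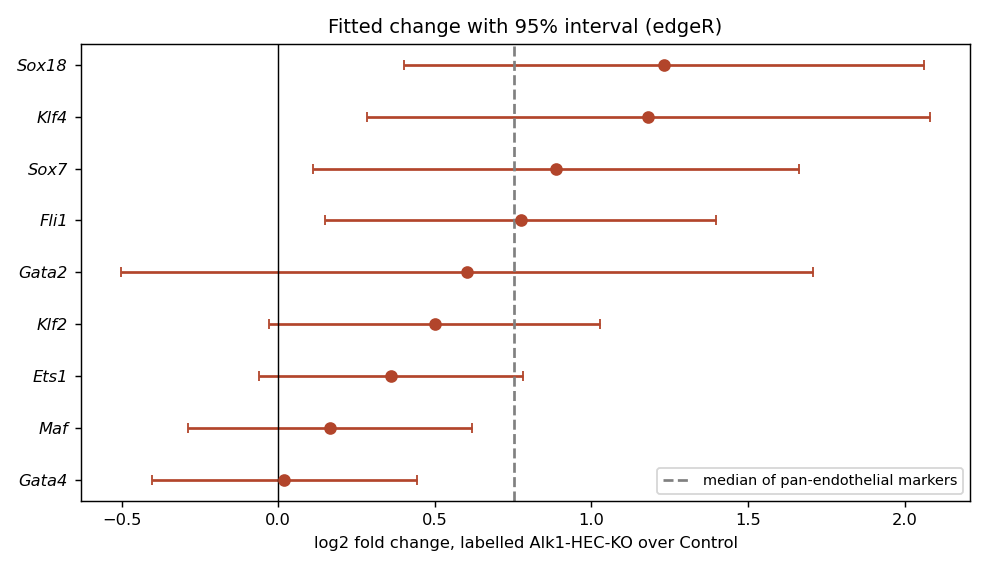
Fitted log2 fold change of labelled Alk1-HEC-KO over control libraries (x axis) with its 95% interval for each factor, in order of size. Intervals of Sox18, Klf4, Sox7 and Fli1 lie above 0 before adjustment, Gata4 sits at 0.02, and the dashed line marks the median of 16 pan-endothelial markers at 0.75.

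To set the factors beside the amount of endothelial RNA in each library, pan-endothelial markers were used. These 16 pan-endothelial markers (such as Cdh5 and Pecam1, junction proteins of all endothelium) showed a median log2 fold change of 0.75, 15 pointed higher, and 1 of them, Emcn, was called higher. Their mean log2 CPM was 3.19 ± 0.45 in labelled knockout and 2.53 ± 0.40 in control libraries (SD, n = 5 each), a difference of 0.66. No test was made of the factors relative to these markers, and each factor's log2 CPM minus the marker mean of its own library is given as a description. On that scale Gata4 averaged 0.046 ± 0.47 in labelled knockout and 0.71 ± 0.37 in control libraries, and Maf 1.40 ± 0.24 in labelled knockout and 1.89 ± 0.27 in control libraries. Relative to the markers, the labelled knockout means were thus below the control means by differences of -0.67 for Gata4 and -0.48 for Maf, with overlapping libraries. In log2 CPM itself Gata4 averaged 3.23 in labelled knockout and 3.24 in control libraries, so its difference is that of the marker mean. Maf averaged 4.59 and 4.42. Both genes are also active in other liver cells, so these differences cannot be read as changes per endothelial cell. The difference for Ets1 was -0.32. The differences were -0.08 for Klf2 and 0.0015 for Fli1, while Sox18 lay 0.47 higher (-0.35 ± 0.41 in labelled knockout and -0.83 ± 0.21 in control libraries). Klf4 lay 0.61 higher (-2.56 ± 0.45 in labelled knockout and -3.16 ± 0.89 in control libraries). Its lowest values, -4.55 and -3.55 in control libraries 2 and 4, rest on 5 counts each. Control libraries 1, 3 and 5 lay within the labelled knockout range for Klf4. Sox7 lay 0.28 higher and Gata2 0.045 higher.

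**Figure D4:**
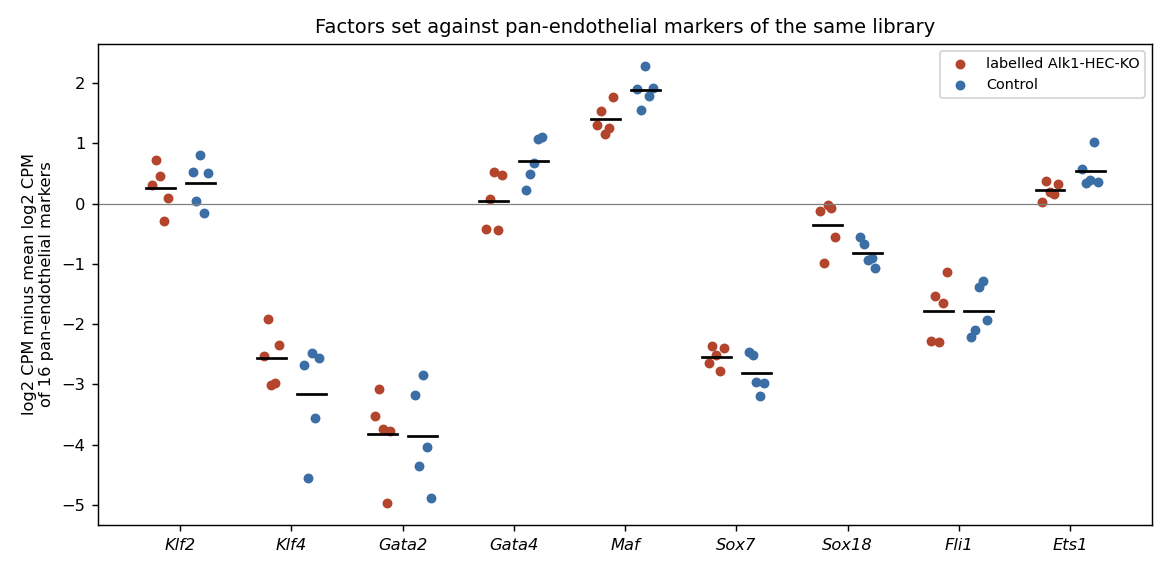
Log2 CPM of each factor minus the mean log2 CPM of 16 pan-endothelial markers in the same library (y axis), with labelled Alk1-HEC-KO libraries in red left of control libraries in blue and bars at group means. Labelled knockout minus control means differ by -0.67 for Gata4, -0.48 for Maf and 0.47 for Sox18. For Gata4 that difference is the shift of the marker mean, and none of these values is a level per endothelial cell.

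Single libraries stood at the same end for most factors. Labelled knockout library 4 was highest in log2 CPM for 6 of the 9 (Klf4, Maf, Sox7, Sox18, Fli1 and Ets1), and control library 4 was among the lowest 3 for all 9. The same 2 libraries were highest and lowest in the mean of the pan-endothelial markers, at 3.83 and 1.94. Labelled knockout library 4 was also high in stellate cell markers, which summed to 297 TPM there, against 96.9 to 174 TPM in the other labelled knockout libraries and 127 to 202 TPM in controls. Without labelled knockout library 4, the log2 fold changes were 0.96 for Sox18, 1.12 for Klf4, 0.76 for Sox7 and 0.53 for Fli1. Gata4 was highest in labelled knockout library 3, and Klf2 and Gata2 in labelled knockout library 1.

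**Figure D5:**
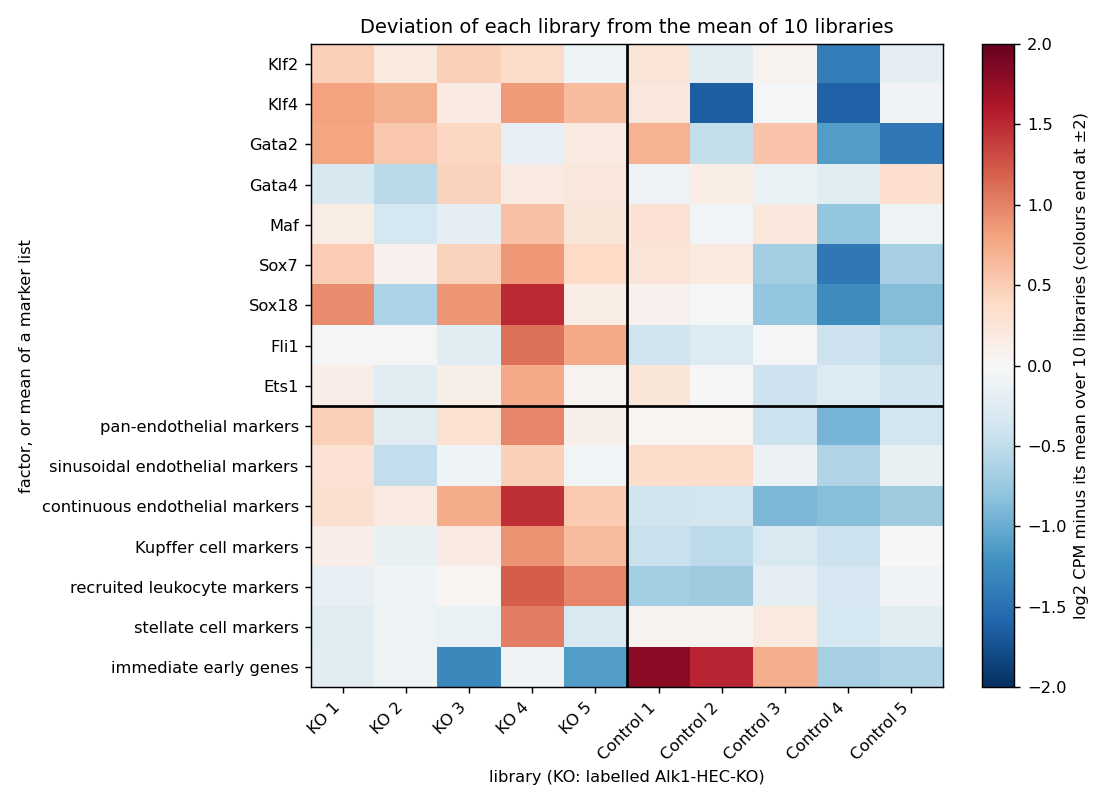
Log2 CPM of each factor (upper rows) and mean log2 CPM of marker lists (lower rows) in each library, minus the mean over 10 libraries, with labelled Alk1-HEC-KO libraries left of the line. Most factors follow the pan-endothelial row, red in KO 4 and blue in Control 4, and immediate early genes are red in Control 1 and Control 2.

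Numbers in the deposited names form 3 runs, whose meaning the labels leave unstated. The first holds labelled knockout library 1 and control libraries 1 and 2, the second labelled knockout library 3 and control libraries 3, 4 and 5, and the third only labelled knockout libraries 2, 4 and 5. Within the first and second run the difference in log2 CPM, labelled knockout minus control, was 0.92 and 1.84 for Sox18, 1.52 and 0.74 for Klf4, 0.28 and 1.40 for Sox7, and 0.46 and 0.96 for Klf2. For Fli1 it was 0.31 and 0.12, below the 0.77 fitted over all libraries, and with the run as a covariate the fit gave 0.21. Gata4 gave -0.34 and 0.47, Maf 0.03 and 0.04, Ets1 0.02 and 0.48, and Gata2 0.68 and 1.068. The third run has no control, so in it run and group cannot be told apart.

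Of the other endothelial transcription factors, 23 of 28 were tested. None was called in either direction by edgeR (6 had an unadjusted p under 0.05, all higher), 16 pointed higher and 7 lower, and their median on the log2 scale was 0.47. The full list summed to 76.4 to 161 TPM in labelled knockout and 81.6 to 138 TPM in control libraries. Bcl6b, Mef2c, Erg and Hhex were named after their values were seen. The repressor gene Bcl6b stood at 1.51 (SE 0.34; edgeR, adjusted p = 0.115), and Mef2c, of the MEF2 family named above, at 1.13 (SE 0.31; edgeR, adjusted p = 0.259). Erg, the ETS factor closest to Fli1, averaged 2.32 TPM in labelled knockout and 1.18 TPM in control libraries, which is 0.84 on the fitted log2 scale (SE 0.31; edgeR, adjusted p = 0.470). Hhex, among those pointing lower, averaged 40.3 TPM in labelled knockout and 49.7 TPM in control libraries. Its fitted log2 value was -0.36 (SE 0.33; edgeR, adjusted p = 0.812).

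Lists of genes that these factors are known to act on were counted in the same way, beside 0.186% of all tested genes called higher and 0.171% called lower. Of 11 tested genes linked to KLF2 or KLF4 as induced, 1 was called higher, the integrin gene Itga6 (log2 fold change 2.15, SE 0.34; edgeR, adjusted p = 0.0116), 7 pointed higher and 4 lower, and the median was 0.23. At an unadjusted p under 0.05, 4 of them were higher and 2 lower. Nos3 and Thbd, textbook targets of KLF2 whose products make nitric oxide and bind thrombin, chosen after their values were seen, had log2 fold changes of 1.06 and 1.16 and were not called (edgeR, adjusted p = 0.326 and 0.393). The 4 that pointed lower, none of them called, were the prostaglandin D synthase gene Ptgds at -2.12 (SE 0.52; edgeR, adjusted p = 0.174), Nqo1 at -0.43 (SE 0.18; edgeR, adjusted p = 0.521), Gja4 at -0.29 and S1pr1 at -0.11. Among 8 tested genes linked to KLF2 or KLF4 as repressed none was called, 1 had an unadjusted p under 0.05, and the median was 0.15. Of 19 tested endothelial genes linked to ETS or SOXF factors, 18 pointed higher with a median of 0.75, 11 were higher and 1 lower at an unadjusted p under 0.05, and 1 was called higher, the tight junction gene Cldn5 (log2 fold change 1.401, SE 0.23; edgeR, adjusted p = 0.0117). Of 9 tested genes linked to GATA2, 1 was called higher, Emcn (log2 fold change 2.02, SE 0.28; edgeR, adjusted p = 0.0045), 5 were higher and 1 lower at an unadjusted p under 0.05, and the median was 0.60. Many of these genes stand in several lists and among the pan-endothelial markers. The list for ETS or SOXF factors summed to 59.8 to 127 TPM in labelled knockout and 39.8 to 69.8 TPM in control libraries. Pan-endothelial markers summed to 55.6 to 120 and 37.8 to 67.8 TPM, so the count for ETS or SOXF factors is not separate from theirs.

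Markers of the endothelial states that GATA4 and c-MAF are known to set were counted in the same way, and the counts of the lists were not tested against each other. Of 19 tested sinusoidal markers, which those factors favour, none was called, 11 pointed higher and 8 lower, 1 had an unadjusted p under 0.05, and the median log2 value was 0.07. GATA4 is known to hold the continuous state down in mouse liver. Gata4 itself had a log2 fold change of 0.02 (edgeR, adjusted p = 0.983), and its part in the values that follow was not tested. Of 18 tested genes listed as markers of the continuous state, 7 were called higher and 0 lower, with a median of 1.04. At an unadjusted p under 0.05, 12 were higher and 1 lower, Vwf, the von Willebrand factor gene, at -1.16 (SE 0.39; edgeR, adjusted p = 0.379). Of all tested genes 0.186% were called higher, and the 16 pan-endothelial markers had a median of 0.75 with 1 called, Emcn, which is in both lists. The list of 18 was chosen with earlier results of these data known. It also holds Apln, Pdgfb and Myc, which are not specific to continuous endothelium, and Apln and Pdgfb are among the 7. The called ones with the smallest adjusted p were Ly6c1, Emcn, Apln and Cldn5. The 18 continuous markers summed to 163 to 384 TPM in labelled knockout and 87.5 to 354 TPM in control libraries. These sums overlapped, with control library 2 at 354 TPM. Sinusoidal markers summed to 310 to 469 TPM in labelled knockout and 254 to 482 TPM in control libraries, and the defining markers Stab2 and Lyve1 were present in all 10 libraries.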

How the data were processed

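Per library, the authors deposited TPM and estimated counts per gene. Per the submitters' processing notes, reads were handled with kallisto 0.4.6 and Trim Galore 0.6.4 on GRCm38.p6; how transcripts were summed to genes and whether strand was used are not given in the sources used here. Symbols and coordinates came from GENCODE M21 (GRCm38), which matched 55144 of 55385 IDs. Estimated counts were rounded, filtered with filterByExpr (12872 genes kept), scaled by TMM and tested in R 4.3.3 with edgeR 4.0.16 (quasi-likelihood, robust, group as the only term, adjusted p under 0.05). Standard errors and 95% intervals derive from the quasi-likelihood F. The code was checked on simulated counts. Exact two-sided permutation tests of log2 CPM use all 252 splits, with a smallest possible p of 0.0079. Alternatives were limma 3.58.1, DESeq2 1.42.0, other scalings, filters, offsets and library subsets, the one without the third file number run chosen after seeing these fits. Samples were grouped by their titles. Replicate numbers did not pair libraries (correlation of deviations above 0.1 in 2 of 5 pairs). The members, gene lists and alternatives were chosen with earlier results of these data known. Named genes are the 9 members, Acvrl1, Fos, Saa1, up to 4 called members of each list, and for each member the 2 tested genes of at least 1 TPM most correlated with it, without predicted genes or pseudogenes; others are said to be chosen after their values were seen, or serve as markers. Annotated transcripts overlapping Fli1, Maf and Ets1 held at most 6.03 counts each, summed over libraries.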

Additional observations from a re-analysis of the deposited data

How the results depend on the processing

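Under all 27 alternatives, no factor was called. Of 239 factor values, 228 kept their direction and their side of the threshold, and 11 changed sign, 10 of them for Gata4 (main value 0.02). Leaving out 1 library at a time gave Gata4 -0.11 to 0.15. The replicate block gave it -0.0068, limma-voom -0.017, transcript length offsets -0.020, and the fit without the 3 libraries with Saa1 above 1000 TPM -0.14, where Maf stood at -0.20. The cause was not tested. The replicate block left 0 factors called and 40 genes in all. Klf4, Gata2, Sox7 and Fli1 fell under the stricter filter (at least 50 counts in 5 libraries) and have no value there. Over all genes, 46 were called. DESeq2 called 152, no filter 119, the stricter filter 24, limma on unfiltered log2(TPM + 1) 10, the file number run as covariate 5, and the fits without libraries of high Fos, high Saa1 and the third run 17, 30 and 18. Leaving out 1 library at a time gave 33 to 83 genes, the 83 without labelled knockout library 1. Depth limits Gata2, Klf4 and Sox7 most, with 100, 226 and 246 counts in all 10 libraries.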

Other observations

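Relatives of the 9 factors in the same gene families gave no gene called by edgeR. The single relatives below were named after their values were seen. Of 11 tested KLF relatives 4 pointed higher and 7 lower, 1 had an unadjusted p under 0.05, and the median log2 value was -0.08. Klf15, at a mean of 73.6 TPM in labelled knockout and 83.8 TPM in control libraries, was more abundant than Klf2. Klf9 averaged 32.9 TPM in labelled knockout and 26.5 TPM in control libraries. Of 12 tested GATA, MAF and SOX relatives, 7 pointed higher with a median of 0.10, and 2 had an unadjusted p under 0.05. Among them Sox9, a cholangiocyte factor, stood at 1.16 on the log2 scale (SE 0.30; edgeR, adjusted p = 0.190). Of 12 tested ETS relatives 7 pointed higher with a median of 0.07, and 3 had an unadjusted p under 0.05. Spi1, the myeloid ETS factor and also in the Kupffer list, stood at 0.78 (SE 0.23; edgeR, adjusted p = 0.274).

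Other marker lists were read for the cells that could hold these transcripts. Lymphatic markers (5 tested of 7) had a median log2 fold change of -0.02 and no call, and summed to 9.81 to 23.1 TPM in labelled knockout and 11.7 to 30.0 TPM in control libraries. Stellate cell (19 tested), smooth muscle (6) and cholangiocyte (4) markers had medians of 0.20, -0.07 and 0.18 with no call. The 8 tested leukocyte markers had a median of 1.08, the 15 Kupffer cell markers 0.69 and the 11 hepatocyte markers 0.06, again with no call. At an unadjusted p under 0.05 (edgeR), 5 of the 8 leukocyte, 11 of the 15 Kupffer cell and 0 of the 11 hepatocyte markers were higher. Of all tested genes 5.03% were. The 3 tested mast cell and megakaryocyte markers had a median of 0.01, the 14 immediate early genes -1.14 and the 15 acute phase genes 0.70, with no call.

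After group means were taken out, the genes most like each factor in log2 CPM over the 10 libraries were searched among 9736 genes, and the values describe the highest matches of that search. Sox18 was matched by Crim1 and by Stab1, a scavenger receptor gene of sinusoidal endothelium (Pearson r = 0.98 and 0.97, Spearman rho = 0.95 and 0.96). Sox7 was matched by Cd38 and Akap2 (r = 0.97 and 0.96), Maf by Mbnl1 and Neurl3 (0.96 and 0.96), Fli1 by Adam15 and Cyth4 (0.97 and 0.95), and Ets1 by Dysf and Tagln (0.94 and 0.93). Matches of Klf2 (Col27a1 and Lipc, 0.91 and 0.89), Klf4 (Nr1i3 and Arrdc1, 0.91 and 0.91), Gata2 (Rabl2 and Rsad1, 0.90 and 0.89) and Gata4 (Repin1 and Chst13, 0.88 and 0.84) were lower. The points are libraries that differ in depth and cell makeup, and these values say nothing of shared control.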
